A study of Arabidopsis thaliana with 12 samples.

Results

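The genes described here make UDP-GlcNAc, the activated form of N-acetylglucosamine (GlcNAc), or encode enzymes that pass sugars to dolichol or to proteins. The loci were chosen by name and were *GFAT1*, *GNA1*, *DRT101*, *GlcNA.UT2*, *GPT* (AT2G41490), AT3G57220, *SEC* and *SPY*, and each was represented by every probe whose sequence accession matched its locus. This gave 10 of the 43603 probes on the array and 8 of the 25433 matched genes. Probes under a signal of 100 on all 12 arrays were removed, which left 31498 probes, among them 9 of the 10 member probes and at least 1 probe for each of the 8 genes. The probe lost to this limit was the dimmer of the 2 probes of *GFAT1*.

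RNA of whole Arabidopsis seedlings, harvested after 14 days on agar plates, was hybridized to one-colour Agilent arrays. There were 4 groups of 3 replicates, since wild-type Col-0 and the line iU1-52 were each grown with no added salt (MS) or with 200 mM NaCl in the plates. The iU1-52 line carries dsRNAi (RNA interference through a double-stranded transcript) against *GlcNA.UT1* in the T-DNA insertion mutant *glcna.ut2-1*, so both uridylyltransferase genes are altered in it, and Col-0 carries neither change. It was 1 transgenic line. Salt was present from sowing, so the salt groups differ from the MS groups in their whole growth period. The study reports that germination of iU1 lines was delayed on salt plates, and that their cotyledons failed to expand or turn green. Col-0 and iU1-52 with salt may therefore have been at different stages of development at harvest. The part of stage in any result that compares the lines in salt was not tested. The methods call the replicates biological and say that labelled products were pooled, without giving the number of seedlings. In RNA from whole seedlings, fewer cells of a type and less RNA per cell cannot be told apart.

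UDP-GlcNAc is built in the hexosamine pathway, in which an amino group is added to fructose 6-phosphate, the product is acetylated, its phosphate is moved, and uridylyltransferases join the sugar phosphate to UTP. In the endoplasmic reticulum, its GlcNAc 1-phosphate is placed on dolichol phosphate as the start of the N-glycan, a step that the antibiotic tunicamycin blocks. In the nucleus and cytosol, SEC transfers GlcNAc to serine and threonine of proteins, whereas its relative SPY uses GDP-fucose for the same kind of transfer.

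The arrays held 43803 spots other than controls, of which 2 to 10 per array carried an outlier flag and 0 were saturated, and 75.4% to 79.4% of spots were well above background. Replicate 1 of iU1-52 with salt stood apart. Its 75th percentile of signal was 2512.1, against 3881.6 and 3937.9 in replicates 2 and 3 of that group. The median SD of a probe over 3 replicates was 0.212 on the log2 scale in this group and 0.071 to 0.078 in the other groups, and for the member probes it was 0.275 against 0.036 to 0.069. Values without this array are therefore given where they change a result.

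Markers of green leaf and root were well above background on all arrays, 4 of 4 in each list. The summed signal of the leaf markers was 995000 to 1040000 in Col-0 on MS, 1030000 to 1060000 in iU1-52 on MS, 952000 to 977000 in Col-0 with salt, and 464000 to 557000 in iU1-52 with salt. The 4 seed markers, storage and oil body proteins, summed to 17.8 to 30.7 and 19.5 to 56.2 in the groups on MS. They summed to 139000 to 308000 in Col-0 with salt and 792000 to 973000 in iU1-52 with salt. The root markers summed to 185000 to 203000, 203000 to 221000, 248000 to 254000 and 314000 to 318000 in the same order of groups, and none of the 3 pollen markers was well above background on all arrays of any group. Of the root markers, *PYK10* made up most of the sum, with a mean log2 signal of 17.50 in Col-0 and 17.65 in iU1-52 on MS, and 17.91 and 18.24 with salt. The other 3 had lower means in Col-0 with salt than on MS, with *COBL9* going from 11.31 to 10.54, *SHR* from 11.13 to 10.56 and *SCR* from 11.23 to 10.63, and they were at 11.02, 10.98 and 11.15 in iU1-52 with salt. The leaf markers did not differ alike between the lines in salt. Their means in Col-0 and iU1-52 were 18.51 and 18.28 for *RBCS1A*, 18.78 and 17.30 for *LHCB1.3*, 15.74 and 11.76 for *CA1*, and 16.46 and 14.01 for *RCA*. Leaf, root and seed markers thus differed with salt and between the lines in salt, not all in the same direction. These were the same arrays as for the member genes, and the part of such shifts in the results was not tested.

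*GlcNA.UT2* (AT2G35020), the uridylyltransferase gene that carries the insertion in iU1-52, was lower in iU1-52 than in Col-0 at both of its probes and in both media. The study typed the wild-type allele with a pair of primers, and combined the right primer with a T-DNA border primer for the mutant allele. The pair is shown, 5′ to 3′ and in lower case throughout, because it marks the allele that separates the lines at this gene.
GlcNA.UT2 right primer: gtaagcacacctgaaaagtaaac
GlcNA.UT2 left primer: ctggttagctctctcagtttcaag

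On probe A_84_P225849, the log2 quantile-normalized signal of *GlcNA.UT2* was 12.85, 12.66 and 12.67 in Col-0 on MS and 11.71, 11.84 and 11.62 in iU1-52 on MS (replicates 1, 2 and 3). With salt it was 12.91, 12.95 and 12.88 in Col-0 and 12.70, 12.26 and 12.19 in iU1-52. The lines did not overlap in either medium, and replicate 1 of iU1-52 with salt was the closest to Col-0. On probe A_84_P823089, it was 9.59, 9.55 and 9.48 in Col-0 and 7.38, 7.32 and 7.32 in iU1-52 on MS. On the salt plates it was 9.71, 9.74 and 9.71 in Col-0 and 8.62, 8.28 and 8.03 in iU1-52. On this probe, all 6 iU1-52 arrays were below all 6 Col-0 arrays.

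**Figure D1:**
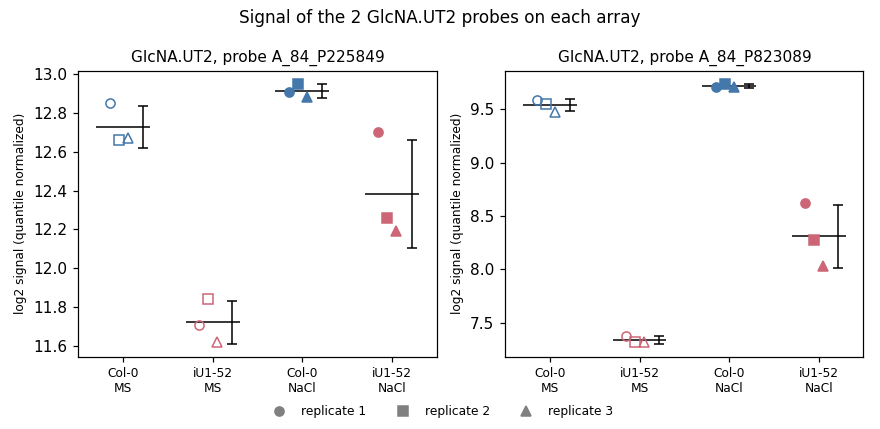
Log2 quantile-normalized signal of the 2 *GlcNA.UT2* probes on each of the 12 arrays, by group. Symbols are replicates, the horizontal line is the group mean and the bar is ± 1 SD (n = 3). The iU1-52 arrays lie below the Col-0 arrays of the same medium in both panels, and those with salt lie above those without.

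In iU1-52 on MS, linear signal of probe A_84_P225849 was 46.2% to 54.1% of the Col-0 mean (median 49.4%), and with salt it was 60.7% to 86.1% (median 63.4%). On probe A_84_P823089, it was 21.5% to 22.4% (median 21.5%) on MS and 30.9% to 46.7% (median 36.8%) with salt. The transcript signal at this locus was therefore reduced but not at background, since each probe was well above background on every iU1-52 array. The study, by contrast, reported no significant reduction of this gene in iU1-52 on its arrays. It could not detect the protein there, and proposes that the probes read a truncated transcript left in the mutant. Signal at these probes is therefore no measure of working enzyme. In limma, iU1-52 was lower on MS by 1.00 ± 0.12 on A_84_P225849 (log2 difference with its SE, adjusted p = 0.0073), and on A_84_P823089 the difference was -2.20 ± 0.12 (adjusted p = 3.5e-05). With salt it was -0.53 ± 0.12 (adjusted p = 0.0054) and -1.41 ± 0.12 (adjusted p = 8.4e-06). The linear signal of A_84_P823089 was low in iU1-52 on MS, at 160.3 to 166.7. With normexp background correction, its line difference was smaller, -1.62 on MS (adjusted p = 5.9e-05) and -1.18 with salt (adjusted p = 6.9e-06). The *GlcNA.UT2* probes were the 2 member probes that passed on MS, where 2 of 9 passed against 0.435% of all probes. Both were lower in iU1-52 by at least 2-fold. Among all probes 0.0444% were lower, and 0.279% passed with at least 2-fold in either direction. "Passed" means here an adjusted p under 0.05 over all 31498 probes, and the value after ± is the SE wherever a difference is given. Each probe had 1 estimate of the spread for all groups, although iU1-52 with salt varied more than the others. The SE and adjusted p of comparisons with that group may thus be too small, and those of the other comparisons too large.

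Salt raised *GlcNA.UT2* signal in iU1-52, by 0.66 ± 0.12 (adjusted p = 7.5e-04) on A_84_P225849 and by 0.96 ± 0.12 (adjusted p = 3.4e-05) on A_84_P823089. In Col-0, the differences were 0.19 ± 0.12 (adjusted p = 0.21) and 0.18 ± 0.12 (adjusted p = 0.2). Without replicate 1 of iU1-52 with salt, which tightens the shared estimate of the spread, the Col-0 differences kept their size at adjusted p = 0.035 and 0.025. The interaction, the line difference with salt minus that on MS, was 0.78 ± 0.17 (adjusted p = 0.0068) on A_84_P823089 and 0.47 ± 0.18 (adjusted p = 0.068) on A_84_P225849. The latter was 0.31 (adjusted p = 0.029) without replicate 1 and 0.57 (adjusted p = 0.04) without replicate 3 of iU1-52 with salt. With normexp correction, the interaction on A_84_P823089 was 0.44 (adjusted p = 0.048), and the rise with salt in iU1-52 on this probe was 0.60 (adjusted p = 3.8e-04).

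The line difference was not the same at both *GlcNA.UT2* probes. The log2 ratio of the dimmer to the brighter probe was compared for the 4624 genes with exactly 2 probes kept, a test chosen after the probes had been seen to differ. The ratio was lower in iU1-52 by 1.19 on MS (-1.19 ± 0.07, adjusted p = 1.9e-05), where 5 genes (0.108%) passed, and with salt the difference was -0.88 ± 0.07 (adjusted p = 3.2e-05), where 498 genes (10.8%) passed. With normexp background correction, a setting added after the data had been seen, the ratio differences between the lines were -0.66 ± 0.06 (adjusted p = 0.0011) on MS and -0.57 ± 0.06 (adjusted p = 1.1e-04) with salt. In Col-0, salt shifted the ratio by -0.01 ± 0.07 (adjusted p = 0.97), and in iU1-52 by 0.31 ± 0.07 (adjusted p = 0.0074), which was 0.04 ± 0.06 (adjusted p = 0.69) with normexp. The interaction was 0.31 ± 0.09 (adjusted p = 0.13). Where on the transcript each probe lies relative to the insertion was not examined. *GlcNA.UT1*, the target of the dsRNAi, was not analysed here.

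The enzyme of the committed step, glutamine:fructose-6-phosphate amidotransferase, is encoded by *GFAT1* (AT3G24090), and its transcript had the highest signal in iU1-52 with salt. On probe A_84_P21225, *GFAT1* signal was 8.48, 8.40 and 8.54 in Col-0 on MS and 8.75, 8.74 and 8.87 in iU1-52 on MS. Salt plates gave 8.89, 9.02 and 9.02 in Col-0 and 9.91, 10.05 and 9.97 in iU1-52. The 4 groups followed each other without overlap in this order, and replicate 1 of iU1-52 with salt lay close to replicates 2 and 3.

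*GFAT1* rose with salt by 0.51 ± 0.07 (adjusted p = 1.0e-04) in Col-0 and by 1.19 ± 0.07 (2.28-fold, adjusted p = 1.1e-07) in iU1-52. In salt, iU1-52 exceeded Col-0 by 1.00 ± 0.07 (adjusted p = 2.5e-06), with differences of 1.02, 1.02 and 0.95 within the 3 slides. On MS the difference of 0.32 ± 0.07 did not pass (95% interval 0.16 to 0.47, adjusted p = 0.12). The 3 iU1-52 arrays were above the 3 Col-0 arrays there, as they were for *GPT* with a difference of 0.08. The share of all probes separated in this way was not counted. With array weights the *GFAT1* difference on MS was 0.30 (adjusted p = 0.024), in a fit where 2.01% of all probes passed, against 0.435% without weights. The interaction was 0.68 ± 0.10 (adjusted p = 7.7e-04), and left-out arrays moved it only between 0.64 and 0.72. The other *GFAT1* probe, A_84_P833833, was well above background on 0 of 6 arrays on MS, on 1 of 3 in Col-0 with salt and on 2 of 3 in iU1-52 with salt. In a limma fit with no filter on dim probes, its line difference in salt was 1.02 ± 0.35 (adjusted p = 0.046). Its interaction of 0.50 ± 0.49 did not pass (adjusted p = 0.53).

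*GNA1* (AT5G15770) encodes the acetyltransferase of the pathway, and no comparison of its single probe passed. Its signal was 10.41, 10.28 and 10.32 in Col-0 on MS and 10.39, 10.20 and 10.40 in iU1-52 on MS. On salt plates it was 10.43, 10.46 and 10.56 in Col-0 and 10.76, 10.24 and 10.29 in iU1-52. Replicate 1 of iU1-52 with salt was the highest array of all and replicates 2 and 3 of the same group were below all 3 Col-0 arrays with salt. The line difference in salt was -0.06 ± 0.13 (95% interval -0.34 to 0.22, adjusted p = 0.72), and without replicate 1 it was -0.22 (adjusted p = 0.022). The salt differences were 0.15 (95% interval -0.13 to 0.42) in Col-0 and 0.10 (-0.18 to 0.37) in iU1-52.

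*DRT101* (AT5G18070), the phosphoacetylglucosamine mutase that moves the phosphate, followed salt in both lines. Its signal was 10.85, 10.69 and 10.76 in Col-0 and 10.75, 10.81 and 10.77 in iU1-52 on MS, where the lines overlapped. The values with salt were 10.97, 10.98 and 11.06 in Col-0 and 11.32, 11.28 and 11.37 in iU1-52, and all 3 iU1-52 arrays were above Col-0. *DRT101* rose with salt by 0.23 ± 0.06 (adjusted p = 0.0071) in Col-0 and by 0.55 ± 0.06 (adjusted p = 1.8e-05) in iU1-52. In salt it was higher in iU1-52 by 0.32 ± 0.06 (adjusted p = 0.0018), and within the slides by 0.35, 0.30 and 0.32. The line difference on MS was 0.01 (95% interval -0.13 to 0.15).

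The *DRT101* interaction was 0.31 ± 0.09 (adjusted p = 0.023). It was 0.27 to 0.31 with adjusted p = 0.051 to 0.064 without any 1 of 5 arrays, namely replicate 1 of Col-0 or of iU1-52 on MS, replicate 3 of iU1-52 on MS, or replicate 1 or 2 of Col-0 with salt. With normexp background correction it was 0.23 (adjusted p = 0.1).

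**Figure D2:**
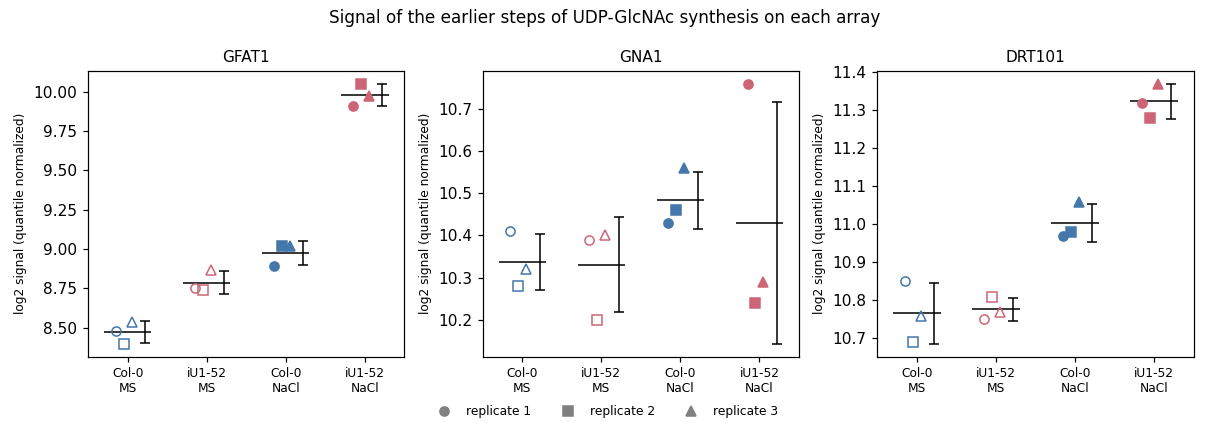
Log2 quantile-normalized signal of *GFAT1* (probe A_84_P21225), *GNA1* and *DRT101* on each array, by group, with the group mean and ± 1 SD (n = 3). The y axes differ between panels. *GFAT1* rose from 8.40 at the lowest Col-0 array on MS to 10.05 at the highest iU1-52 array with salt, whereas the 2 lines overlap in *GNA1* in both media.

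*GPT* and AT3G57220 stand for the GlcNAc-1-phosphotransferases that act on dolichol phosphate. *GPT* (AT2G41490) had 11.70, 11.68 and 11.72 in Col-0 and 11.78, 11.79 and 11.78 in iU1-52 on MS. With salt it had 11.51, 11.63 and 11.72 in Col-0 and 11.98, 12.60 and 12.51 in iU1-52. Every iU1-52 array with salt was above all other arrays, with replicate 1 the lowest of its group.

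In salt, iU1-52 exceeded Col-0 in *GPT* by 0.74 ± 0.14 (1.68-fold, 95% interval 0.44 to 1.05, adjusted p = 0.0013). It rose with salt in iU1-52 by 0.58 ± 0.14 (adjusted p = 0.003), whereas in Col-0 the difference was -0.08 ± 0.14 (adjusted p = 0.62). The line difference on MS was 0.08 (95% interval -0.22 to 0.38). The interaction of 0.66 ± 0.19 (adjusted p = 0.027) became 0.86 (adjusted p = 3.9e-05) without replicate 1 of iU1-52 with salt. Leaving out any 1 of 9 other arrays, that is all but replicate 2 of Col-0 on MS and replicate 3 of Col-0 with salt, gave 0.54 to 0.67 with adjusted p = 0.052 to 0.069.

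AT3G57220 stayed within 11.02 and 11.32 on all 12 arrays, and no comparison passed. It was 11.10, 11.10 and 11.07 in Col-0 and 11.11, 11.10 and 11.17 in iU1-52 on MS. With salt it was 11.17, 11.11 and 11.15 in Col-0 and 11.02, 11.32 and 11.15 in iU1-52. The line difference in salt was 0.01 (95% interval -0.15 to 0.18, adjusted p = 0.88) and the interaction was -0.02 (95% interval -0.26 to 0.21). The difference between *GPT* and AT3G57220 in their response was not tested itself.

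*SEC* (AT3G04240), the O-GlcNAc transferase, was 12.51, 12.41 and 12.39 in Col-0 and 12.42, 12.36 and 12.32 in iU1-52 on MS. On salt, the arrays gave 12.15, 12.25 and 12.32 in Col-0 and 12.30, 13.15 and 13.17 in iU1-52. Replicates 2 and 3 of iU1-52 with salt were above all other arrays, and replicate 1 lay among the Col-0 arrays, so the lines overlapped in salt. The line difference of *SEC* in salt was 0.63 ± 0.19 (adjusted p = 0.018), and within the slides it was 0.15, 0.90 and 0.84.

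The *SEC* difference in salt did not pass without replicate 2 or 3 of iU1-52 with salt or replicate 1 of Col-0 with salt (0.49 to 0.59, adjusted p = 0.061 to 0.072), nor in a fit of the 6 arrays compared alone (adjusted p = 0.084). Without replicate 1 of iU1-52 with salt it was 0.92 (adjusted p = 2.1e-06). The salt difference in iU1-52 was 0.51 ± 0.19 (adjusted p = 0.034). It was 0.79 (adjusted p = 2.3e-06) without that array, and 0.36 to 0.54 (adjusted p = 0.06 to 0.13) without any 1 of the other 5 iU1-52 arrays. Nor did it pass with no filter on dim probes (adjusted p = 0.051) or in a fit of the iU1-52 arrays alone (adjusted p = 0.11). In Col-0 the difference was -0.19 ± 0.19 (adjusted p = 0.38), and without the array that stood apart it was -0.19 (adjusted p = 0.0096). The interaction was 0.70 ± 0.27 (adjusted p = 0.072), against 0.99 (adjusted p = 1.9e-05) without that array.

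*SPY* (AT3G11540), the O-fucosyltransferase, fell with salt in Col-0. It was 9.50, 9.57 and 9.60 in Col-0 and 9.49, 9.50 and 9.44 in iU1-52 on MS. Its values with salt were 9.14, 9.07 and 9.23 in Col-0 and 9.35, 9.70 and 9.87 in iU1-52. The 3 Col-0 arrays with salt were the lowest of the 12, and the iU1-52 arrays with salt spread on both sides of the arrays on MS.

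*SPY* fell with salt by 0.41 ± 0.11 (adjusted p = 0.0081) in Col-0. In iU1-52 the salt difference was 0.16 ± 0.11 (adjusted p = 0.23), and 0.31 (adjusted p = 0.0022) without replicate 1 with salt. In salt *SPY* was higher in iU1-52 by 0.50 ± 0.11 (adjusted p = 0.0047), with 0.21, 0.62 and 0.65 within the slides, and on MS the difference was -0.08 (95% interval -0.33 to 0.17). The interaction was 0.57 ± 0.16 (adjusted p = 0.023). It was 0.54 to 0.57 (adjusted p = 0.052 to 0.056) without replicate 3 of either line on MS or replicate 1 or 2 of Col-0 with salt, and 0.42 (adjusted p = 0.052) with normexp correction.

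**Figure D3:**
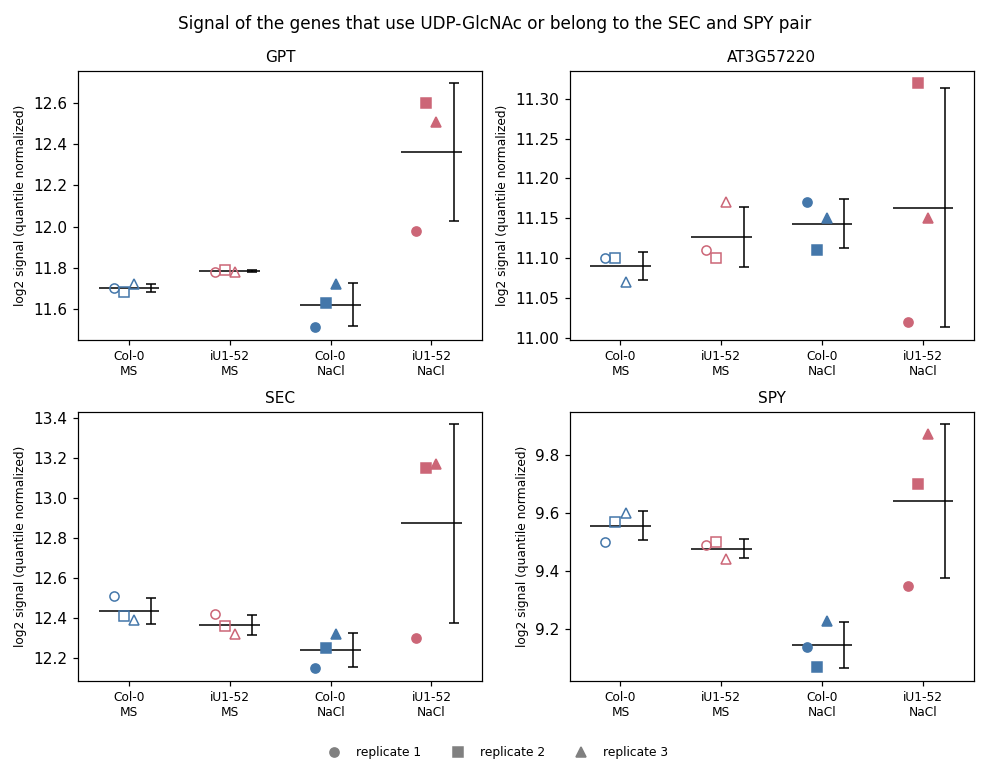
Log2 quantile-normalized signal of *GPT*, AT3G57220, *SEC* and *SPY* on each array, by group, with the group mean and ± 1 SD (n = 3). The y axes differ between panels. In the panels of *GPT*, *SEC* and *SPY*, replicate 1 of iU1-52 with salt lies below replicates 2 and 3 of its group.

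Over all members, 7 of the 9 probes passed between the lines in salt, 5 higher in iU1-52 (*GFAT1*, *DRT101*, *GPT*, *SEC* and *SPY*) and 2 lower (both *GlcNA.UT2* probes). Among all probes 51.3% passed there, 27.3% higher and 24% lower. The member differences had a median of 0.32 and a median size of 0.53, against 0.04 and 0.33 over all probes. Only *GlcNA.UT2* probe A_84_P823089 also reached 2-fold, as did 10.8% of all probes, and *GFAT1* was just under it. On MS, the median size was 0.08 for the members and 0.06 for all probes.

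The interaction passed for 5 of 9 member probes, all positive, in *GFAT1*, *DRT101*, *GlcNA.UT2* (A_84_P823089), *GPT* and *SPY*, where 29.2% of all probes passed and 14.6% were positive. None of the 5 reached 2-fold, against 9.49% of all probes that passed and did. Its median was 0.57 for the members and 0.04 for all probes. Without 1 array the count was between 2 and 7, the latter without replicate 1 of iU1-52 with salt and the former without replicate 1 or 2 of Col-0 with salt or replicate 3 of iU1-52 on MS. In the fit with 7, 59.8% of all probes passed, and in those with 2, 20.6% to 23.4% did. The count was 3 without replicate 1 of either line on MS or replicate 3 of Col-0 on MS, where 22.6% to 23.4% of all probes passed. Since line differences in salt and the interaction share arrays, they are not independent of each other.

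Salt changed 3 of 9 member probes in Col-0, with *GFAT1* and *DRT101* raised and *SPY* lowered, where 68.7% of all probes passed, 33.4% raised and 35.4% lowered. None of the 3 reached 2-fold, as 22.3% of all probes did. The median size of the member differences was 0.19, against 0.49 over all probes. In a fit without replicate 1 of iU1-52 with salt, 6 of 9 passed in Col-0, as did 78.8% of all probes. In iU1-52, salt raised 6 of 9 (*GFAT1*, *DRT101*, both *GlcNA.UT2* probes, *GPT* and *SEC*), where 67.7% of all probes passed and 34.9% were raised. *GFAT1* alone also reached 2-fold, against 26.9% of all probes. There the median size was 0.55 for the members and 0.49 for all probes.

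**Figure D4:**
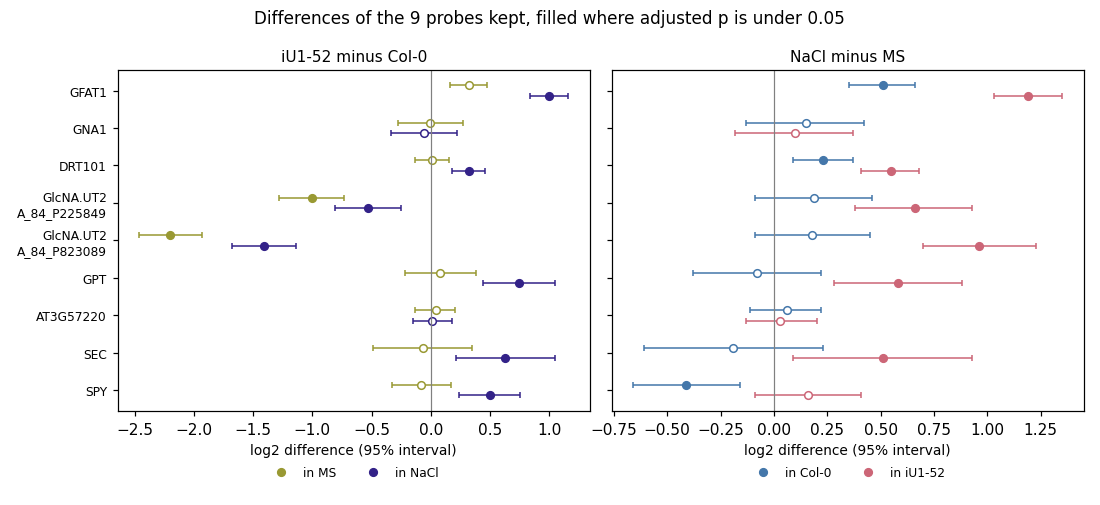
Log2 differences of the 9 member probes with their 95% intervals, between the lines (left, in MS and in NaCl) and between NaCl and MS (right, in Col-0 and in iU1-52). Filled points have an adjusted p under 0.05. On the left, the *GlcNA.UT2* probes lie below 0 in both media, whereas *GFAT1*, *DRT101*, *GPT*, *SEC* and *SPY* lie above 0 in NaCl.

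A list of 14 further genes held loci taken for salvage and transport of GlcNAc, for other glycosyltransferases and for UDP-sugar supply, and 13 of them were tested by their brightest probe. On MS 0 of 13 passed in limma, and with salt 5 differed between the lines, 3 higher and 2 lower in iU1-52. With the brightest probe of each of all genes, 0.526% passed on MS and 51% in salt. The median of the list was -0.04 in salt. *CGL1*, the GlcNAc transferase of complex N-glycans, was 11.87 ± 0.06 in Col-0 and 12.27 ± 0.06 in iU1-52 with salt (SD, n = 3), a difference of 0.40 ± 0.06 (SE, adjusted p = 6.1e-04). AT5G65000 was lower by 0.54 (-0.54 ± 0.07, adjusted p = 1.6e-04) and AT4G18230 by 0.48 (-0.48 ± 0.06, adjusted p = 9.8e-05).

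The largest difference of this list was that of AT5G04500, whose signal was 9.20 to 9.54 in iU1-52 and 6.54 to 7.53 in Col-0 with salt, and 5.61 to 6.27 over the arrays on MS. On the linear scale, every array on MS and the lowest Col-0 array with salt were under 100, the limit used for keeping probes. The probe was well above background on 3 of 3 arrays in each group. The line difference in salt was 2.21 ± 0.24 (4.64-fold, adjusted p = 3.9e-05). Its interaction term, 2.43 ± 0.33, passed as well (adjusted p = 5.0e-04). The interaction passed for 4 of 13 genes, 2 positive and 2 negative. Salt changed 8 of 13 in Col-0 (5 raised and 3 lowered) and 6 of 13 in iU1-52 (4 and 2). Over the brightest probes of all genes, 28.7% passed for the interaction, 69% for salt in Col-0 and 67.9% for salt in iU1-52. Without replicate 1 of iU1-52 with salt, 9 of 13 passed between the lines in salt, 4 higher and 5 lower, and 5 of 13 had an interaction, against 70.5% and 59.8% of all probes.

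The other list held 11 genes, 5 of them for DELLA proteins, the repressors of gibberellin signalling that SEC and SPY modify, and others taken as targets or partners of these enzymes. On MS 0 of 11 passed in limma. With salt 6 of 11 were higher in iU1-52, with a list median of 0.31, where 51% of all genes passed in either direction. *RGL3*, a DELLA gene, was 8.73 ± 0.29 in Col-0 and 10.59 ± 0.08 in iU1-52 with salt (SD, n = 3), a difference of 1.86 ± 0.13 (SE, adjusted p = 2.7e-06). *RGL2*, the DELLA gene known for restraining germination, was 11.72 ± 0.29 and 13.08 ± 0.36 (difference 1.36 ± 0.18, adjusted p = 1.8e-04). Both rose with salt in Col-0 too, *RGL3* by 1.28 and *RGL2* by 2.17 (adjusted p = 1.2e-05 and 2.6e-06).

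*PRR5*, a clock protein gene, was higher in iU1-52 in salt by 0.68 ± 0.11 (adjusted p = 6.3e-04) and AT1G15200 by 0.48 ± 0.15 (adjusted p = 0.022), the latter with overlapping groups. The interaction passed for 4 of 11 genes of this list, all positive. Salt changed all 11 in Col-0, 2 raised and 9 lowered, with a median of -0.55, and 7 of 11 in iU1-52, 2 raised and 5 lowered, with a median of -0.18. The shares over all genes were 28.7%, 69% and 67.9%. Without replicate 1 of iU1-52 with salt, 9 of 11 passed between the lines in salt, 8 of them higher in iU1-52, and 8 of 11 had an interaction, beside the same 70.5% and 59.8% of all probes.

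Genes with the most similar pattern to each member were taken from 26910 features well above background on all 12 arrays, by Pearson's r over those arrays. As the 4 groups and the array that stood apart set much of each pattern, r is given as a description. For *GFAT1* they were *MYB7* (r = 0.994) and *SDF2* (0.990), for *GPT* they were *HGL1* (0.989) and *BAG7* (0.988), and for *DRT101* they were AT5G20940 and *WIT1* (both 0.992). *SEC* was closest to AT3G49490 at both probes of that gene (0.993 and 0.992), and *SPY* to *ASG2* (0.988) and *MBD13* (0.983).

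The remaining members had less close neighbours. *GlcNA.UT2* (A_84_P225849) was closest to AT3G56830 (r = 0.928) and AT3G56210 (0.912), *GNA1* to AT3G01740 (0.935) and AT1G45110 (0.928), and AT3G57220 to *NAC083* (0.858) and *BGLU16* (0.857).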

How the data were processed

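Col-0 and iU1-52 seedlings with and without 200 mM NaCl were compared on 12 arrays, with groups and replicate numbers from the labels. The authors deposited linear Cy3 intensity per spot from Feature Extraction 10.7.1.1, background-subtracted and not normalized between arrays. Control spots and flagged outliers were dropped, spots of a probe averaged, probes under 100 on every array removed, as in the methods, and the rest quantile normalized and taken to log2. Probes were matched to loci through accessions in the TAIR10.1 annotation (34358 of 43603), used for names only.

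Groups were compared in limma 3.58.1 under R 4.3.3 by lmFit and eBayes, two-sided, with a mean for every group over all arrays and Benjamini-Hochberg adjustment over all 31498 probes. Simulated data with known changes served as a test of the procedure. The number of arrays limits the precision. All 8 members were named with every probe, with the 2 features of highest r for each, and up to 4 genes of each list with the largest passing differences in salt. Members and lists were chosen with earlier results of these data known.

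Other settings were 75th percentile scaling, normexp correction (offset 50, on median pixel intensities), no filter, a filter by background flags, the brightest probe or mean of probes per gene, array weights, a replicate block, only the arrays compared, a 2-way ANOVA, a 2-fold criterion, and each array left out. Each slide held 1 array of every group, and a group had the same position on all slides, so effects of position and of group cannot be told apart. Primer sequences were copied from the study's primer list.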

Additional observations from a re-analysis of the deposited data

Results flagged for a closer look

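By limma's interaction test, 5 of the 9 member probes responded differently to salt in the 2 lines. Each had a more positive log2 salt difference in iU1-52 than in Col-0. The difference of the differences was 0.68 for *GFAT1* (adjusted p = 7.7e-04), 0.31 for *DRT101* (adjusted p = 0.023) and 0.78 for *GlcNA.UT2* at probe A_84_P823089 (adjusted p = 0.0068). It was 0.66 for *GPT* (adjusted p = 0.027) and 0.57 for *SPY* (adjusted p = 0.023). In limma, *SPY* differed with salt by -0.41 in Col-0 (adjusted p = 0.0081) and by 0.16 in iU1-52 (adjusted p = 0.23), the smaller change. Among all probes, 29.2% passed this test. In *GFAT1* and *GlcNA.UT2* (A_84_P823089) the call held without any 1 array, and in the other 3 it did not. Groups of 3 arrays were too small for a test of single outlying samples.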

How the results depend on the processing

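None of the other settings, listed with the methods, reversed a difference that had passed. Reversed signs, all in differences that did not pass, were 0.01 for *GNA1* on MS with 75th percentile scaling, -0.01 for AT3G57220 in salt and 0.01 for the *GNA1* interaction with normexp correction, and, with array weights, 0.07 for the AT3G57220 interaction and -0.02 for the salt difference of *GNA1* in iU1-52. Leaving out each array in turn gave, between the lines on MS, -0.04 to 0.06 for *GNA1* and -0.03 to 0.05 for *DRT101*. In salt it gave -0.22 to 0.04 for *GNA1* and -0.06 to 0.09 for AT3G57220, for the interaction -0.22 to 0.04 and -0.10 to 0.05, and for salt in iU1-52 -0.07 to 0.19 and -0.04 to 0.10.

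The count of member probes passing was 2 to 2 on MS, 6 to 8 in salt, 2 to 7 for the interaction, 3 to 6 for salt in Col-0 and 5 to 7 for salt in iU1-52 with 1 array left out. In the same fits, 0.162% to 0.908% of all probes passed on MS, 38.9% to 70.5% in salt and 20.6% to 59.8% for the interaction. For salt, 62.1% to 78.8% passed in Col-0 and 61.9% to 77.3% in iU1-52. With 2-fold also required the count was 1 in salt, 0 for the interaction, 0 for salt in Col-0 and 1 for salt in iU1-52. The shares over all probes were 10.8%, 9.49%, 22.3% and 26.9%. The count was 3 for the interaction with normexp (28.8% of all probes). It was 1 on MS with the brightest probe or the mean of the probes of a gene (0.526% and 0.531% of all genes). For salt in Col-0 it was 6 with array weights or with only the arrays compared (80.6% and 78.6% of all probes). Over the 9 member probes, all comparisons and all settings, single-probe differences lost their call in 31 cases and gained it in 17, without a change of direction. Scaling to the 75th percentile moved no median of all probes by over 0.1, and the share of positive calls in the interaction went from 49.9% to 42%.

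Replicate numbers shared a slide, and the deviations of same-numbered arrays correlated over 0.1 in 3 of 18 pairs (-0.05 to 0.22). Between the lines on the same medium, the correlations were 0.16, 0.07 and 0.10 on MS and 0.10, 0.01 and 0.22 with salt. The other pairs lay between -0.05 and 0.13. Arrays with different numbers were not compared, so these values do not settle whether the numbers pair the samples. With the replicate block, the counts were 2, 7, 5, 3 and 6, as without it, and no single call changed.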
